A study of Mus musculus with 6 samples.

Results

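The ribosome biogenesis factors described here are 36 nucleolar and RNA polymerase I genes picked by symbol for their place in the pathway, with earlier results of these data known, and all 36 are among the 14986 genes of the table. They were measured in mouse long-term haematopoietic stem cells (LT-HSCs), the self-renewing cells from which all blood lineages arise, which were sorted from lineage-depleted bone marrow. Polyadenylated RNA from 1500 cells per sample was amplified as cDNA before library construction, and the 6 libraries are 3 of wild type and 3 of Zcchc8 KO. ZCCHC8 holds together the nuclear exosome targeting complex, an adaptor that hands short-lived nuclear RNA to the exosome for decay, and the study set out to see how messenger RNA levels in these cells depend on it. The labels give no strain, age, sex, deleted exons, driver of deletion or sort markers, and no sign that libraries came from separate animals, so p-values measure the spread between these libraries, which may be technical.

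Ribosome production starts in the nucleolus, where RNA polymerase I transcribes the long precursor of most ribosomal RNA. Box C/D particles guide its methylation, the small subunit processome folds and cuts it, and separate sets of assembly factors mature the small and the large subunit. Several of these steps use the same exosome that ZCCHC8 serves in the nucleoplasm. Stem cells of the marrow are known to keep protein synthesis low, and the transcription factor Myc drives many of these genes through the E-box element. The table is of polyadenylated RNA and measures neither ribosomal RNA nor ribosome number. In such bulk samples fewer cells of a type and less RNA per cell cannot be told apart.

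Values are FPKM, reads scaled to gene length and to library size, as deposited. Whole reads recovered from these values placed 18059318 to 25709663 reads behind each library, and every one of the 36 genes had at least 113 reads in every library. Zcchc8 itself was not lower in the libraries labelled KO, at 8.93, 5.24 and 5.16 FPKM in the wild-type libraries and 10.4, 5.54 and 5.92 FPKM in KO, so the table does not check the label; a value summed over all exons cannot show the loss of single exons. Below, KO stands for the libraries labelled Zcchc8 KO. Of 18 LT-HSC markers all were in the table, with a summed level of 643 to 710.0 FPKM in the wild-type libraries and 517 to 568 in KO. Of the 17 tested 0 passed an adjusted p of 0.05, and by value 5 were higher and 12 lower in KO. At an unadjusted p under 0.05, 8 were lower, against 4.33% of all tested genes, and 0 were higher, against 4.87%. Hoxb5 was listed at 0 in KO library 2. Of 21 markers of other marrow cells present in the table, 20 were tested, and 7 were higher and 1 lower in KO past an adjusted p of 0.05. Of all tested genes 0.228% were called in either direction. The 21 markers had summed levels of 2528 to 2746 FPKM in the wild-type libraries and 2569 to 2711 in KO. Prg2 and Epx, of eosinophil granules, were listed at 0 in wild-type libraries 1 and 2, and Cd3d, of T cells, in wild-type libraries 2 and 3. Igkc, an antibody light chain, was the lower one, at 746 to 866 FPKM in the wild-type libraries and at 0, 0 and 1.35 in KO, and the other 20 markers summed to 1782 to 1880 FPKM in wild type and 2569 to 2710.0 in KO. The 7 higher ones were Prg2 (0 to 0.379 FPKM in wild type, 119 to 132 in KO) and Epx (0 to 0.638, then 10.6 to 16.3), Hbb-bt (31.1 to 42.1, then 142 to 178), Hba-a1 (2.46 to 4.78, then 17.5 to 25.1) and Car1 (28.9 to 45.8, then 124 to 136) of red cells, Cd48 (45.2 to 52.4, then 100.1 to 108) of progenitors, and Dntt (0.596 to 1.91, then 11.6 to 18.8) of lymphoid progenitors. The part of these cell markers in the values below was not tested.

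None of the 36 genes passed the test between KO and wild type, while most of them stood somewhat higher by value in the KO libraries. The test was limma on log2(FPKM + 1) over the 11837 genes whose mean reached 1 FPKM, a filter that all 36 passed, with Benjamini-Hochberg adjustment and a threshold of 0.05. It called 0 of the 36, where 0.228% of all tested genes were called, and the lowest adjusted p among the 36 was 0.325. By value 28 of 36 were higher in KO (77.8%, against 50.2% of all tested genes). The median log2 difference, KO minus wild type, was 0.23 for the 36 genes and 0.00 for all tested genes. At an unadjusted p under 0.05, 5 of 36 (13.9%) were higher, against 4.87% of all tested genes, and 0 were lower, against 4.33%. All 3 KO libraries lay above all 3 wild-type libraries for 10 of 36 (27.8%, against 8.24% of all tested genes) and below them for 1 (2.8%, against 6.99%). By limma-voom on recovered reads the adjusted calls were again 0 of 36, with 9 higher before adjustment. The count of 5 went to 2 without wild-type library 1 or KO library 1 and without the variance trend, and to 3 without wild-type library 3 or KO library 2 and under scaling to a fixed total. For these settings and for limma-voom the share of all tested genes under the same cut was not computed, so the counts of 9, 2 and 3 have no background beside them.

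The 5 genes with an unadjusted p under 0.05 came from 3 of the 5 role groups used below. Nip7, which encodes an assembly factor that binds precursor ribosomal RNA, had the smallest p. Its level was 27.1, 16.9 and 20.1 FPKM in wild-type libraries 1 to 3 and 35.96, 29.9 and 42.7 in KO libraries 1 to 3, a ratio of means of 1.69 (log2 difference 0.74 ± 0.22 SE, unadjusted p = 0.00804, adjusted p = 0.325, limma). Every KO library lay above every wild-type library. Rrs1, which helps to bring the smallest ribosomal RNA into the large subunit, stood at 79.6, 56.6 and 79.5 FPKM in the wild-type libraries and 112, 90.1 and 103 in KO (log2 difference 0.51 ± 0.16, adjusted p = 0.368, limma). The groups did not overlap here either, and wild-type library 2 was the lowest for both genes.

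Utp4 and Utp18, both WD-repeat proteins of the small subunit processome, followed with larger spread. Utp4 measured 5.81, 12.0 and 8.92 FPKM in the wild-type libraries and 13.0, 16.5 and 13.7 in KO (log2 difference 0.68 ± 0.28, adjusted p = 0.506, limma). Utp18 measured 13.1, 17.8 and 16.3 FPKM in the wild-type libraries and 22.7, 26.02 and 19.1 in KO (log2 difference 0.49 ± 0.21, adjusted p = 0.513, limma). For both genes wild-type library 1 was the lowest of all 6 and KO library 2 the highest. Npm1, the nucleolar histone chaperone and the highest of the 36 in FPKM, measured 109.9, 121 and 118 FPKM in the wild-type libraries and 136, 142 and 134 in KO (log2 difference 0.24 ± 0.10, adjusted p = 0.511, limma), a small step between tight groups. FPKM divides by merged exon length, 2665 bases for Npm1 and 10188 for Ncl. By reads Ncl stood above Npm1 in every library, at 9444 to 15708 against 5287 to 9321. In GENCODE M21 on GRCm38, Nip7 spans 107056877 to 107060931 on chromosome 8 and Utp4 106893636 to 106923088 on the same chromosome. Rrs1 spans 9545408 to 9547455 on chromosome 1, and chromosome 11 holds Utp18 (93859243 to 93885766) and Npm1 (33152287 to 33163206). All 5 are protein-coding, and their values count reads over all exons, UTRs included.

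**Figure D1:**
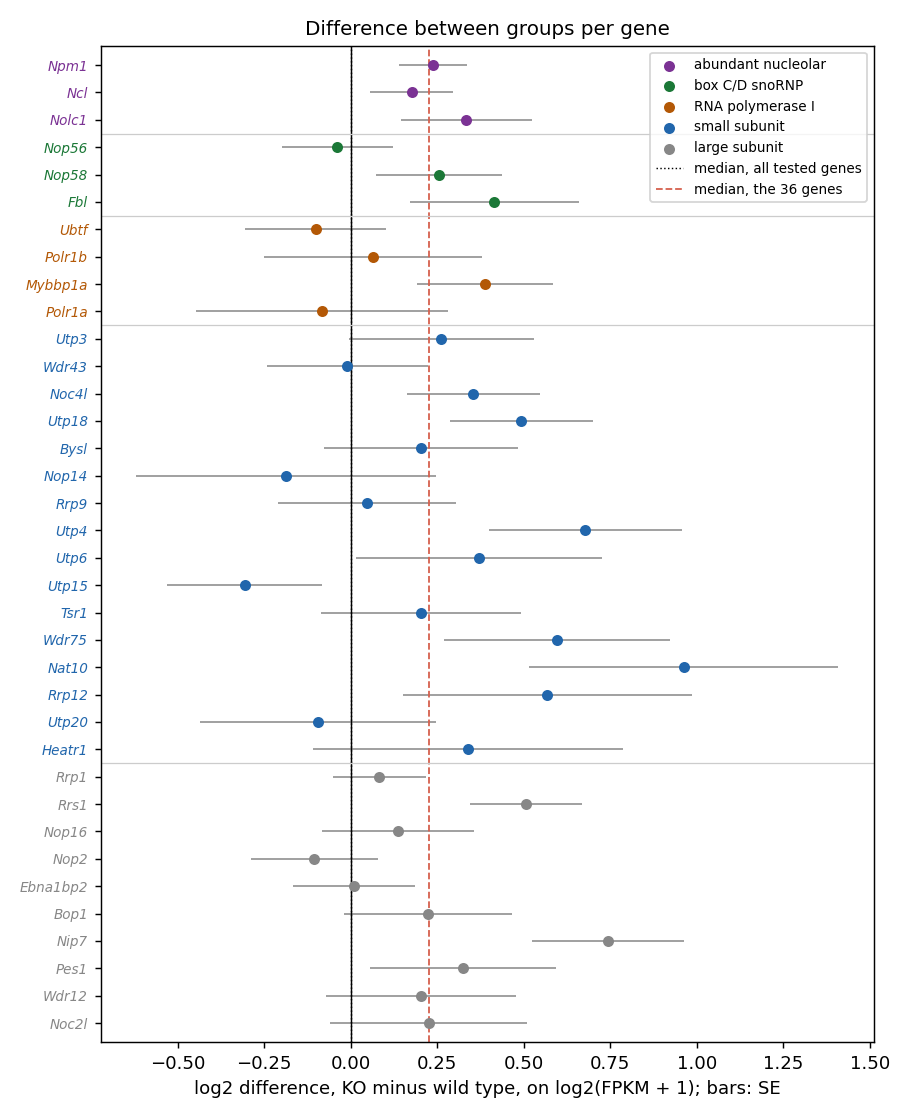
Log2 difference per gene, KO minus wild type on the log2(FPKM + 1) scale (x axis), for the 36 genes grouped by role (y axis, colours); bars are SE from limma, the dashed line is the median of the 36 (0.23) and the dotted line the median of all tested genes (0.00). Most points lie to the right of 0, with Nat10, Nip7 and Utp4 farthest out and Utp15 farthest to the left.

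Promoter sequence was set beside these values because the E-box bound by Myc is the best known shared element of the family. RefSeq promoters on GRCm38.p6, from 250 bases before to 50 after each annotated start, were found for 30 of the 36 genes, as 38 promoters; Npm1, Fbl, Rrs1, Rrp12, Bop1 and Utp6 had no entry. Shown are 120 bases before to 30 after the start for the 2 processome genes above, which hold an E-box, for Nip7, which had the smallest p and holds none, and for Nop2, which holds one and stood lower in KO by value. Capitals mark the E-box (letters CACGTG, the same on both strands).
Utp4, chr8:106893520-106893669, plus strand: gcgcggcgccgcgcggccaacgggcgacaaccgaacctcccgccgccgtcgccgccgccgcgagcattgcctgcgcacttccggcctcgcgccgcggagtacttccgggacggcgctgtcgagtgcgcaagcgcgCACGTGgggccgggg
Utp18, chr11:93885737-93885886, minus strand: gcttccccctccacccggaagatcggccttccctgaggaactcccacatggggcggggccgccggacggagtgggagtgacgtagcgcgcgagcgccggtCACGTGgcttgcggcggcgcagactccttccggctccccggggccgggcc
Nop2, chr6:125131763-125131912, plus strand: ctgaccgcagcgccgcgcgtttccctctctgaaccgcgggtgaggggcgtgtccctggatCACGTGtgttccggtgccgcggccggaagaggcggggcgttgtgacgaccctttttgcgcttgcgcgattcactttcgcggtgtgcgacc
Nip7, chr8:107056757-107056906, plus strand: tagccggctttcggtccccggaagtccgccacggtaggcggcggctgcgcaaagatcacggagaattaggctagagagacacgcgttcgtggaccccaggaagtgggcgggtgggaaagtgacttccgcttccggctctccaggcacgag

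The E-box begins at base 16 of Utp4, counting the start as base 1, 20 bases before that of Utp18 (position -20) and 60 before that of Nop2 (position -60). Of the 38 promoters of the family 8 held it (21.1%), against 9.6% of 13476 promoters of equal length from genes in the table and 7.2% of all 32851. Those 8 belong to Mybbp1a, Nop2, Pes1, Tsr1, Utp18, Utp20, Utp4 and Wdr43. Their median log2 difference was 0.26, with a range of -0.11 to 0.68. That of the 22 genes with a promoter but no E-box was 0.19, with a range of -0.31 to 0.96. Both sets spanned genes higher and lower in KO. By value 5 of the 8 and 17 of the 22 were higher, against 50.2% of all tested genes. Of 3 other elements searched on both strands, the GC box (GGGCGG) was in 73.7% of the family's promoters and 58.8% of those of table genes, the ETS core (CCGGAAG) in 28.9% and 16.5%, and the CCAAT box (CCAAT) in 23.7% and 38.1%. A match is a description of the letters and not a bound site.

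The RNA polymerase I genes showed no common difference. Polr1a, the largest subunit of the enzyme, was the lowest of the 36 genes, at 1.17, 2.57 and 2.23 FPKM in the wild-type libraries and 1.13, 2.28 and 2.01 in KO. Polr1b, the second largest subunit, measured 11.1, 17.9 and 17.6 FPKM in the wild-type libraries and 9.92, 19.0 and 21.3 in KO. In both subunits library 1 was the lowest of its group, in wild type and in KO alike. Ubtf, the factor that opens ribosomal DNA for transcription, measured 23.2, 18.5 and 15.5 FPKM in the wild-type libraries and 18.5, 16.6 and 17.4 in KO. The groups overlapped for all 3, with log2 differences of -0.08 ± 0.36, 0.07 ± 0.31 and -0.10 ± 0.20 (SE). The direction of each turned when single libraries were left out. Mybbp1a, a nucleolar protein that binds Myb and restrains ribosomal RNA production, stood at 11.4, 13.6 and 12.8 FPKM in the wild-type libraries and 16.3, 15.5 and 18.5 in KO, without overlap (log2 difference 0.39 ± 0.20, adjusted p = 0.593, limma).

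Of the 3 core proteins of the box C/D particle, which methylates ribosomal RNA, Fbl and Nop58 stood higher in KO by value and Nop56 was nearly level. Fbl, the methyltransferase fibrillarin, measured 5.55, 6.77 and 5.80 FPKM in the wild-type libraries and 7.82, 7.73 and 9.65 in KO (log2 difference 0.41 ± 0.24, adjusted p = 0.646, limma). Nop58, one of the paired scaffold proteins, measured 15.2, 18.1 and 15.6 FPKM in the wild-type libraries and 20.1, 18.6 and 19.96 in KO (log2 difference 0.26 ± 0.18). In both genes the KO libraries all lay above wild type. Nop56, the other scaffold protein, measured 66.3, 56.1 and 56.5 FPKM in the wild-type libraries and 70.0, 55.9 and 49.5 in KO, with KO library 1 the highest and KO library 3 the lowest of the 6 (log2 difference -0.04 ± 0.16). Its difference was 0.039 without wild-type library 1 and 0.072 without KO library 3. On the per-length FPKM scale Nop56 was the most abundant of the trio and Fbl the least, although the 3 proteins act in 1 particle.

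Among the abundant nucleolar proteins, the RNA-binding protein nucleolin, encoded by Ncl, had the smallest spread of the whole set. It measured 51.3, 53.5 and 52.6 FPKM in the wild-type libraries and 60.0, 58.8 and 59.4 in KO, with coefficients of variation of 2.1% and 1.0%. The step between the groups was larger than the spread within them, yet limma, which borrows the variance of genes of like level, gave 0.18 ± 0.12 with an adjusted p of 0.701. Nolc1, a chaperone of small nucleolar particles, had overlapping groups and a log2 difference of 0.33 ± 0.19. The sum of Npm1, Ncl and Nolc1 was 189, 195 and 197 FPKM in the wild-type libraries and 232, 232 and 220.1 in KO, without overlap.

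**Figure D2:**
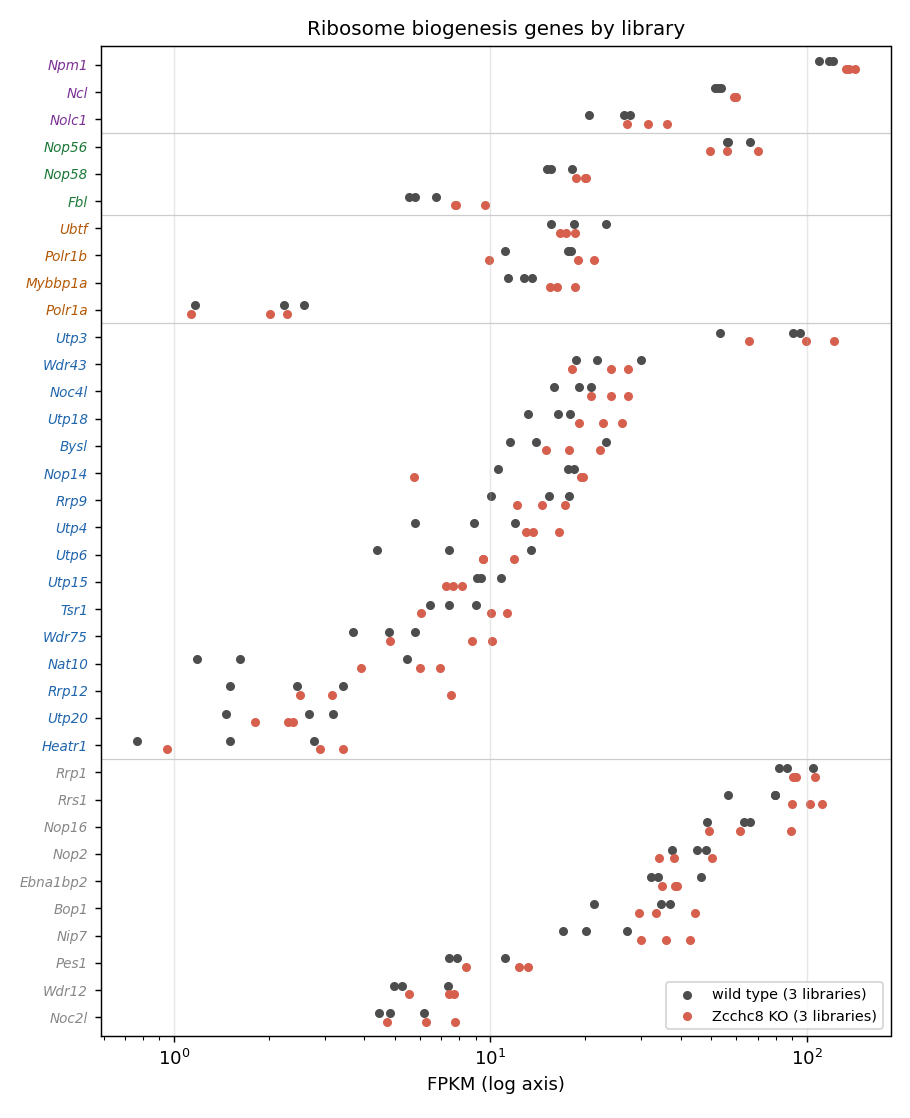
FPKM on a log axis (x) for each of the 36 genes (y, grouped by role), with 3 wild-type and 3 Zcchc8 KO libraries as points and no averaging. Npm1 and Ncl form tight groups that do not overlap, while Nop14, Nat10, Heatr1 and Utp6 spread widely within a group.

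The 16 genes of the small subunit processome and of small subunit maturation held both the largest difference and the one gene whose KO libraries all lay below wild type. By value 12 were higher and 4 lower, with a median log2 difference of 0.30, and none passed. Nat10, the acetyltransferase of ribosomal RNA cytidines, had the largest difference of the 36 at 1.62, 1.18 and 5.47 FPKM in the wild-type libraries and 6.01, 3.92 and 6.92 in KO (log2 difference 0.96 ± 0.45, adjusted p = 0.558, limma). Wild-type library 3 lay inside the KO range, so the groups overlapped. Noc4l, a partner of Nop14 in the processome, measured 20.8, 19.1 and 15.97 FPKM in the wild-type libraries and 24.1, 20.9 and 27.4 in KO (log2 difference 0.35 ± 0.19, adjusted p = 0.617, limma), where the closest libraries of the groups were nearly level.

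Utp15, which sits in the same subcomplex of the processome as Utp4, stood lower in KO by value. It measured 9.39, 10.8 and 9.12 FPKM in the wild-type libraries and 8.17, 7.66 and 7.28 in KO, with a log2 difference of -0.31 ± 0.22 (adjusted p = 0.721, limma). The other 3 genes of that subcomplex listed here were Heatr1 (0.34 ± 0.45), Wdr43 (-0.01 ± 0.23) and Wdr75 (0.60 ± 0.33), given as log2 differences, so its 5 genes did not share a direction. Nop14, an early processome factor, had the second largest negative difference, at 10.6, 18.4 and 17.6 FPKM in the wild-type libraries and 19.3, 19.6 and 5.75 in KO. That difference of -0.19 ± 0.43 rested on KO library 3, and without this library it was 0.35. The other members of this set were Utp3, Utp6, Utp20, Rrp9, Bysl, Tsr1 and Rrp12, with log2 differences from -0.09 (Utp20) to 0.57 (Rrp12) and overlapping groups in each case. Utp20, a large scaffold of repeats, was among the 3 lowest of the 36 at 1.46, 2.69 and 3.19 FPKM in the wild-type libraries and 1.81, 2.30 and 2.37 in KO. Heatr1, a scaffold of the same kind, was another of these 3 at 2.77, 1.501 and 0.763 FPKM in the wild-type libraries and 0.949, 2.90 and 3.43 in KO, so that high and low libraries occurred in both groups.

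Of the 10 large subunit factors 9 were higher in KO by value, with a median log2 difference of 0.21 and none past the test. The trio that forms the PeBoW complex, needed for maturation of large subunit RNA, did not separate the groups. Bop1 measured 36.9, 34.7 and 21.2 FPKM in the wild-type libraries and 44.3, 29.6 and 33.5 in KO, Pes1 7.87, 7.41 and 11.2 against 8.39, 13.2 and 12.4, and Wdr12 5.27, 7.36 and 4.96 against 7.67, 5.53 and 7.41. Their log2 differences were 0.22 ± 0.24, 0.32 ± 0.27 and 0.20 ± 0.27 (SE). The sum of the 10 large subunit factors was 399, 350.1 and 378 FPKM in the wild-type libraries and 442, 426 and 451 in KO, and Rrs1 and Nip7 made up most of the gap. Rrp1, a nucleolar factor of the large subunit and next to Npm1 in FPKM among the 36, measured 105, 81.6 and 86.8 FPKM in the wild-type libraries and 92.4, 90.4 and 106 in KO (log2 difference 0.08 ± 0.13). The remaining 4, Ebna1bp2, Noc2l, Nop2 (a ribosomal RNA methyltransferase) and Nop16, had log2 differences from -0.11 (Nop2) to 0.23 (Noc2l).

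By library, the 36 genes summed to 919, 946 and 934 FPKM in the wild-type libraries and 1077, 1111 and 1066 in KO. Their median log2(FPKM + 1) was 3.92, 4.20 and 4.05 in wild type and 4.32, 4.26 and 4.23 in KO, while that of all tested genes stayed between 3.12 and 3.16. Wild-type library 1 was the lowest of the 6 for 12 genes, and the highest library was a KO library for 27 of the 36. The shares of all tested genes with these traits were not computed, so both counts have no background beside them. The summed level of 24 proliferation genes also lay higher in KO, at 901 to 934 FPKM in the wild-type libraries and 967 to 1033 in KO. Gene by gene, 16 of the 24 were higher and 8 lower by value, and 0 passed the test. At an unadjusted p under 0.05, 1 (Rrm2, of nucleotide supply) was higher (4.2%, against 4.87% of all tested genes). The part of proliferation in the values of the 36 genes was not tested. Replicates varied well beyond counting error. The median coefficient of variation of the 36 genes was 21.4% in wild type and 17.4% in KO, where the reads alone would give 3.0% and 2.3%.

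**Figure D3:**
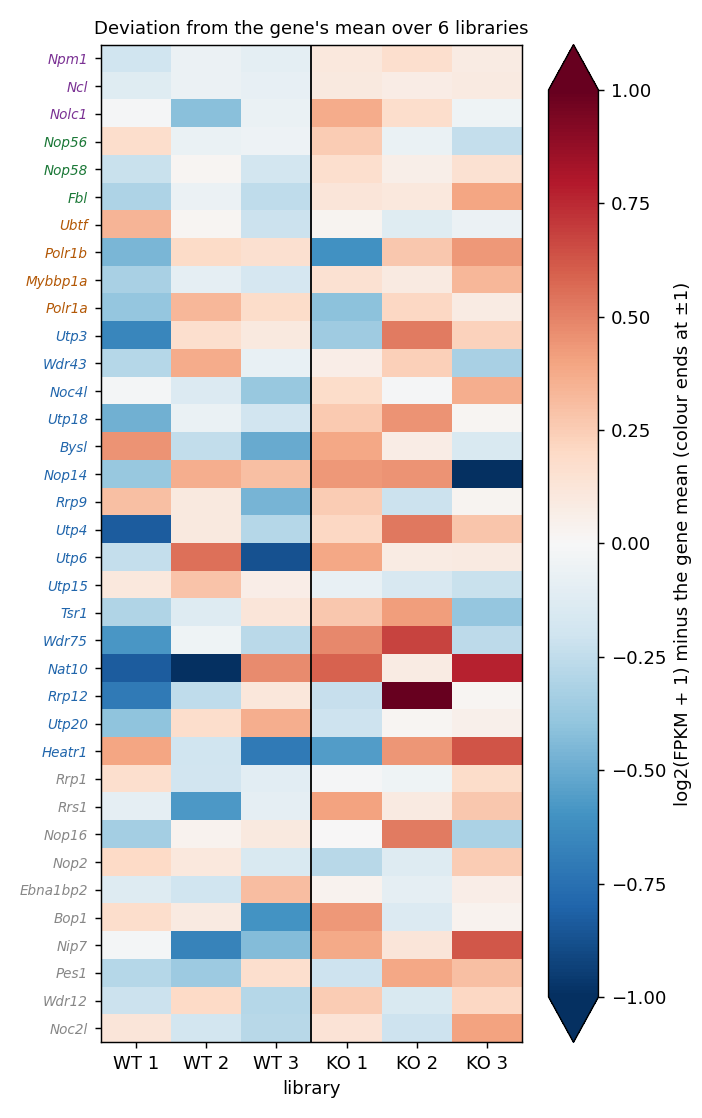
Each cell is log2(FPKM + 1) of 1 gene in 1 library minus the gene's mean over the 6 libraries (colour ends at ±1), with genes in rows and libraries in columns. Red cells are more frequent in the KO columns, single libraries such as KO 3 for Nop14 and KO 2 for Rrp12 stand out, and Npm1 and Ncl change little.

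Levels spanned a 66.7-fold range between Npm1, at 127 FPKM over the 6 libraries, and Polr1a, at 1.90 FPKM. The 36 genes had a median of 16.7 FPKM, 7 were above 50 FPKM and 5 below 5. Genes with more exons stood at lower levels: the Spearman correlation between mean FPKM and the number of merged exons in GENCODE M21 was -0.70 over 36 genes, which share libraries and depth, and it is given as a description. The intronless pair Utp3 and Rrs1, each of 1 exon, ranked just below Npm1 and Rrp1. Utp3, a processome factor, measured 53.4, 95.2 and 90.4 FPKM in the wild-type libraries and 65.9, 122 and 99.4 in KO, with library 1 the lowest of each group. The 4 genes with more than 30 exons, Polr1a, Heatr1, Utp20 and Rrp12, stood at 1.90 to 3.43 FPKM. With the mean length of a merged exon in bases, mean FPKM had a weaker Spearman correlation of 0.39, also given as a description. The alignment tool named by the submitters, Bowtie2, does not split reads over introns, so reads across exon junctions can be missed in genes of many short exons. How much of the order of levels comes from this was not tested.

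**Figure D4:**
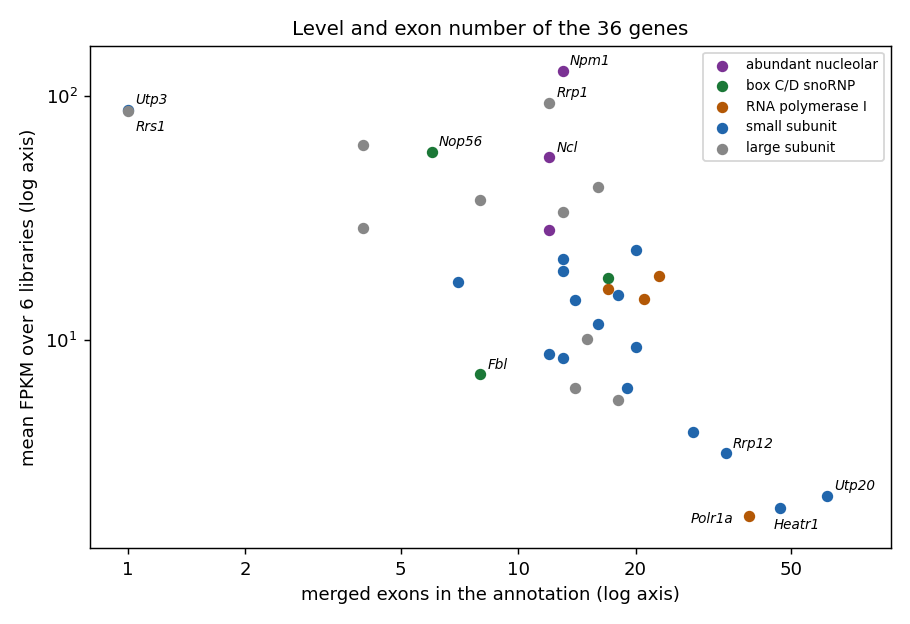
Mean FPKM over 6 libraries (y, log axis) against the number of merged exons in the annotation (x, log axis) for the 36 genes, coloured by role. Levels are high for the intronless pair Utp3 and Rrs1 and low for the 4 genes of more than 30 exons at 1.90 to 3.43 FPKM, and Fbl lies low for its 8 exons.

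Processed pseudogenes, copies of spliced messenger RNA set back into the genome, were measured beside several of these genes. They were singled out after their values were seen. A transcript match of at least 90% identity over at least 300 bases found 27 copies of 10 of the 36 genes, and 10 copies of 7 genes were in the table. Pes1 was the extreme case. Its copy Gm5910 (GRCm38 chromosome 8, 83477471 to 83479216, 95.5% identity) measured 78.6, 53.4 and 63.0 FPKM in the wild-type libraries and 68.8, 89.2 and 110.3 in KO, and Gm5472 (chromosome 15, 45978360 to 45980037) 22.1, 14.2 and 17.2 against 16.3, 25.2 and 32.3. These 2 copies together held 4.11 to 7.32 times as many reads as Pes1 in each library. The Mybbp1a copy Gm5184 (chromosome 12, 56189414 to 56191115) measured 30.2, 32.5 and 25.7 FPKM in the wild-type libraries and 34.7, 37.1 and 49.5 in KO, without overlap of the groups (log2 difference 0.43 ± 0.19, adjusted p = 0.524, limma). It stood at 2.38 times the level of Mybbp1a in FPKM, which divides by length, but held only 0.59 to 0.78 times as many reads.

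In FPKM, though not in reads, 1 copy each of Ncl and Nop56 also stood above the gene itself. The Ncl copy Gm17837 (chromosome 1, 18262395 to 18263379) stood at 125 ± 6.46 FPKM (wild type, SD, n = 3) and at 145 ± 12.2 (KO), 2.41 times the FPKM of Ncl. Its exons span 985 bases against 10188 for Ncl, and it held 0.21 to 0.25 times as many reads. The Nop56 copy Gm27219 (chromosome 9, 36813133 to 36813874) stood at 66.3 ± 3.20 and 68.5 ± 12.8 FPKM, 1.14 times the FPKM of Nop56. The other copies of Nop56 in the table, Gm48906 and Gm9432, were at 0.01 and 0.03 times that level. Together the copies of Nop56 held 0.18 to 0.23 times as many reads as the gene. The means of the copies of Pes1, Mybbp1a and Ncl were higher in KO, as were those of the genes. With reads of gene and copies summed, chosen after seeing the data, the log2 difference was 0.43 for Pes1, 0.43 for Mybbp1a, 0.19 for Ncl and -0.03 for Nop56 on the scale of reads relative to library size, against 0.36, 0.41, 0.18 and -0.04 for the gene alone. How reads with several matches were placed is stated by no source used here, so the levels of such genes and copies are uncertain. Because the named aligner works without splicing, reads across exon junctions of a gene may instead be counted at its intronless copy. How many of the reads at the copies came from the genes was not tested. In addition 13 of the 36 genes share exon bases with another annotated gene on the opposite strand, most of all Tsr1 with Srr (32.3% of its exon bases) and Noc2l with Samd11 (20.9%), and strand use is not given either.

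**Figure D5:**
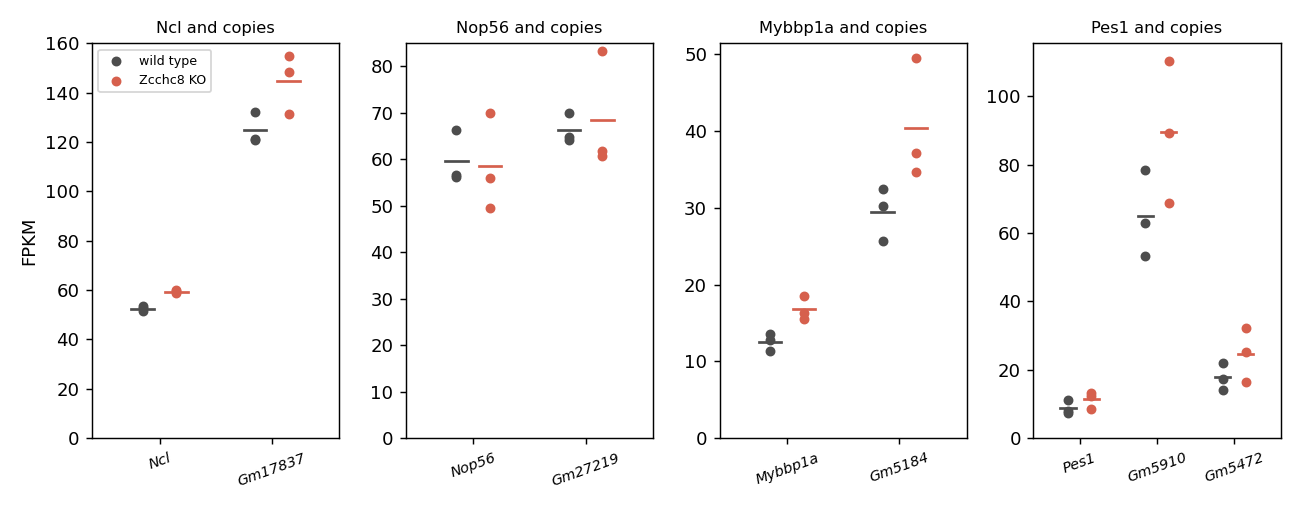
FPKM (y, from 0) of Ncl, Nop56, Mybbp1a and Pes1 and of their processed pseudogene copies in 3 wild-type and 3 Zcchc8 KO libraries; points are libraries and short lines group means; copies below 3 FPKM are not drawn. The Pes1 copy Gm5910 is listed between 53.4 and 110.3 FPKM in every library, far above the value listed for Pes1. Whether reads counted at this copy came from Pes1 was not tested.

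Other genes of the pathway had a median difference nearer to that of all genes. Their list was drawn up by function, but also with earlier results of these data known. Of 100 further ribosome biogenesis genes 98 were in the table and tested, 0 passed, and their median log2 difference was 0.05. At an unadjusted p under 0.05, 5 were higher (5.1%, against 4.87% of all tested genes) and 2 lower (against 4.33%), so the higher share was about that of all genes. By value 58.2% were higher in KO. KO libraries lay wholly above wild type for 13 (13.3%, against 8.24%) and wholly below for 5 (5.1%, against 6.99%). Among 16 further RNA polymerase I genes the median was 0.12. Taf1b, of the promoter selectivity factor, stood at 9.27 ± 2.25 and 14.3 ± 2.37 FPKM and the shared subunit gene Polr1d at 72.8 ± 3.60 and 87.4 ± 7.97, while Ttf1, the terminator factor, stood at 5.63 ± 1.01 and 3.18 ± 0.166 and Polr2k, a subunit shared by the polymerases, at 27.0 ± 10.5 and 19.2 ± 7.48 (wild type, then KO; SD, n = 3).

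Among 39 further small subunit factors the median was 0.02. Rrp36 had the smallest p of the 98 at 20.9, 22.0 and 25.2 FPKM in the wild-type libraries and 34.4, 33.1 and 38.8 in KO (log2 difference 0.62 ± 0.16, adjusted p = 0.248, limma). Snu13, the RNA-binding protein on which box C/D particles assemble, stood at 56.8, 53.2 and 49.2 FPKM in the wild-type libraries and 79.1, 63.2 and 71.5 in KO (adjusted p = 0.385, limma). In the opposite direction Cebpz stood at 18.2 ± 0.384 and 12.8 ± 0.308 FPKM, also without overlap, and Ltv1 at 36.4 ± 3.22 and 28.2 ± 10.7 (SD, n = 3).

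Among 43 further large subunit factors the median was 0.07. Wdr74 stood at 15.3, 18.1 and 16.3 FPKM in the wild-type libraries and 24.9, 30.3 and 18.2 in KO. Pa2g4 stood at 65.9 ± 3.12 and 79.4 ± 10.1 FPKM, while Gnl3l stood at 26.6 ± 3.04 and 20.2 ± 4.12 and Spata5 at 9.37 ± 0.454 and 6.97 ± 2.42 (SD, n = 3). Of the regulators, Myc and its relative Mycn are given for their known role and were singled out after their values were seen. Myc measured 195, 217 and 245 FPKM in the wild-type libraries and 208, 237 and 206 in KO, a log2 difference of -0.01 with overlapping groups, and Mycn 117, 100.5 and 87.4 against 98.4, 120.4 and 100.6. Mxd4, a Max partner that opposes Myc, stood at 5.79, 5.89 and 5.71 FPKM in the wild-type libraries and 3.34, 3.73 and 2.26 in KO (log2 difference -0.74 ± 0.29, adjusted p = 0.481, limma), every KO library below every wild-type library. Of 17 listed regulators 14 were tested and 0 passed, with a median of 0.06. Mnt stood at 4.60 ± 1.64 and 3.17 ± 0.179 FPKM, Mlx at 11.4 ± 1.58 and 14.5 ± 1.94 and Rheb at 16.2 ± 3.48 and 19.9 ± 4.91 (SD, n = 3).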

How the data were processed

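The authors deposited FPKM per gene symbol for 6 libraries in 1 table. Per the submitters' processing notes, fastp, Bowtie2 and featureCounts were used with build mm10; no source used here gives versions, strand use or the treatment of multiply matching reads. Column names were matched to sample titles, and 14671 symbols (97.9%) to GENCODE M21 on GRCm38. FPKM times merged exon length came out within 0.05 of whole reads for 98.0% of values under 100 reads, which gave the depths; intervals from reads cover counting error only, since amplified cDNA repeats molecules. KO was compared with wild type by limma 3.58.1 (R 4.3.3; trend, two-sided) across all genes on log2(FPKM + 1), a scale that shrinks differences of low genes. The procedure was tested on simulated data. Pseudogene copies were found with blastn 2.17.0. Roles, lists and members were chosen with earlier results of these data known. Values per library are given for genes with an unadjusted p under 0.05 or groups that do not overlap, the 3 highest and 3 lowest levels, the box C/D, RNA polymerase I and PeBoW genes and the 2 largest differences each way, and for each other list the 2 smallest p each way; genes outside this rule are marked in the text. Alternatives changed the pseudocount, filter, scaling, variance model, block and libraries. Figures used matplotlib 3.10.9.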

Additional observations from a re-analysis of the deposited data

How the results depend on the processing

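No gene of the 36 passed under any of the 16 alternative settings, and the lowest adjusted p of a gene given per library was 0.253 (Nip7, limma, mean FPKM of at least 5). The median log2 difference of the 36 stayed between 0.16 and 0.26, while that of all tested genes stayed between -0.03 and 0.02. In settings that tested all 36, 26 to 29 were higher in KO by value, and 25 of the 31 with a mean FPKM of at least 5. Over the whole table the 27 calls went to 11 under a replicate block, to 8 without the variance trend, to 8 with limma-voom on recovered reads, and to between 11 and 19 with 1 library left out. No pairing by replicate number was seen: deviations of same-numbered libraries from their group means correlated at 0.024, 0.007 and 0.004. With 3 libraries a group this cannot exclude that same-numbered libraries were handled together. Under the block the 36 kept 0 calls and the median of 0.23. Leaving out 1 library at a time was run for the 24 genes given per library and turned the direction of 7, whose log2 differences then ran from -0.174 to 0.072 (Nop56), -0.298 to 0.103 (Polr1a), -0.145 to 0.382 (Polr1b), -0.232 to 0.043 (Ubtf), -0.319 to 0.065 (Utp20), -0.018 to 0.367 (Bop1, turned without wild-type library 3) and -0.458 to 0.346 (Nop14); the cause was not tested. Summing reads of gene and copies was chosen after seeing the data. With 3 libraries a group and replicate spread well above counting error, differences of the size seen here were not resolved.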

Other observations

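Several of the 36 genes carry small RNA genes in their introns. The annotation places 19 small RNA genes, most of them small nucleolar RNAs, inside 6 of the genes on the same strand, and 3 of these were in the table. Snord92, inside Wdr43, had 6.51, 14.8 and 4.98 FPKM in the wild-type libraries and 16.5, 6.82 and 1.13 in KO. Snord110, inside Nop56, had 4.89, 0.804 and 4.67 FPKM in the wild-type libraries and 0, 0 and 2.12 in KO. These values rest on few reads in a library made from polyadenylated RNA, at most 36 for Snord92 and 6 for Snord110.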
